A study of Mus musculus with 35 samples.

Results

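A set of 10 genes of the retinoic acid pathway was followed in mouse cranial neural crest with and without UTX, the histone H3 lysine 27 demethylase encoded by Kdm6a on the X chromosome. They were named by symbol as the vitamin A receptor Stra6, the synthesis enzymes Aldh1a2 and Aldh1a3, the binding proteins Crabp1 and Crabp2, the receptors Rara, Rarb and Rarg, and the degrading enzymes Cyp26a1 and Cyp26b1. All 10 were found among the 23366 genes of the RNA count table, and all 10 passed the filter on low counts, which left 14521 genes.

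Neural crest cells leave the dorsal neural tube and give rise to much of the bone, cartilage and connective tissue of the face and to peripheral nerves and glia. Cells were sorted at stage E12.5 from the head in front of the otic vesicle and the maxilla, by Tomato fluorescence and exclusion of the dead-cell dye DAPI. All 3 groups carried Wnt1-Cre, a recombinase driven in the neural crest lineage and in part of the dorsal neural tube, together with a Rosa-Tomato reporter. The wild-type libraries wt1 and wt2 came from males, the male knockout libraries mko1 and mko2 from males with their single Utx allele floxed (Utx fl/y), and the female knockout libraries fko1 and fko2 from females with both alleles floxed (Utx fl/fl). There were 2 libraries in each group and no wild-type females, so sex and genotype go together in the female comparison. The labels do not say whether the libraries of a group came from separate embryos or litters, so every p measures the spread between these libraries, which may be technical.

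Retinoic acid is made from circulating vitamin A. STRA6 takes up retinol, dehydrogenases oxidise it to retinaldehyde, and the ALDH1A enzymes make retinoic acid, which CRABP proteins carry in the cytoplasm. The acid binds nuclear RAR receptors that sit on DNA with RXR partners at paired half-sites, CYP26 enzymes destroy it, and both an excess and a lack of it disturb the face and head in embryos.

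Reads on genes numbered from 14513993 to 16350892 per library, and levels are given as CPM, the counts of a gene scaled to 1000000 reads on genes. The libraries fell into a pair of sets by the reads that the counting step assigned to no gene. These were 27.3 to 28.4 per 100 gene reads in wt1, mko2 and fko1 (set A) and 38.2 to 38.8 in wt2, mko1 and fko2 (set B). The sets were drawn from these counts: in each group the library with fewer such reads was named A and the other B. Each set therefore held 1 library of each group by this rule, and the labels do not say what the sets are. Kdm6a, read over the whole gene, stood at 47.3 and 55.5 CPM in wt1 and wt2, 39.7 and 30.8 in mko1 and mko2, and 49.7 and 62.7 in fko1 and fko2. The labels do not say which exons are deleted, so a count over the whole gene does not check the deletion. The Y-linked relative Uty was at 33.3 to 42.4 CPM in the 4 male libraries and at 0 and 0.649 in the female ones. Summed markers of cranial crest mesenchyme lay at 3575 and 3580 CPM in wild type and 2889 to 3539 in the knockouts. Col1a2 was the largest part of this sum, at 1789 and 1892 CPM in wild type and 1147 to 1549 in the knockouts. Of these 10 markers 1 was called lower, and the median log2 fold change of the list was 0.20. Of 12 neural tube markers, 10 fell in the knockouts (edgeR, adjusted p). The summed level of all 12 was 1456 and 1488 CPM in wild type against 745 to 1234 in the knockouts. Most of this sum came from Tubb3 (892 and 836 CPM in wild type, 440 to 766 in the knockouts) and Stmn2 (290 and 311 CPM, and 201 to 346). Summed macrophage markers were at 2.94 to 6.11 CPM and endothelial markers at 9.54 to 14.1, while erythroid markers reached 92.1 in mko2 against 20.9 to 33.6 elsewhere. The ribosomal RNA precursor Rn45s was at 9368 and 3830 CPM in wild type and at 29949 to 49716 in the knockouts. What the marker lists or this RNA contribute to the values below was not tested. In bulk libraries, fewer cells of a type and less RNA per cell cannot be told apart.

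Promoters of Rarb and Cyp26a1 are shown because, among the members with a promoter entry, these held a classical pair of receptor half-sites next to the start of transcription. The search used the half-site AGGTCA and its known variants, among them AGTTCA, then the form GGGTCA, and lastly the form GGTTCA, repeated head to tail with a spacer of 1, 2 or 5 bases (DR1, DR2 and DR5), on both strands of the RefSeq windows from 250 bases before to 50 bases after each start (GRCm38.p6). Of the 10 members, 8 had a window (Crabp2 and Aldh1a3 did not), with 15 windows in all. A DR5 pair stood in the windows of 2 of these 8 members and of 31 of all 27025 genes, or 0.115%. DR1 was held by 71 genes (0.263%) and DR2 by 84 (0.311%), none of them a member. The 100 bases before each start site are given 5′ to 3′ along the gene, with only the half-sites of the DR5 pair in capitals.
Rarb (GRCm38.p6, chr14:16575477-16575576, minus strand): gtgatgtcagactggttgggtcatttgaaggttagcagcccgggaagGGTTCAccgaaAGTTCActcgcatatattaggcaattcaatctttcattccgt
Cyp26a1 (GRCm38.p6, chr19:37697708-37697807, plus strand): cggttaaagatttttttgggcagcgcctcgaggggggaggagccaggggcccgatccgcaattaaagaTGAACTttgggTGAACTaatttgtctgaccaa
In Rarb the pair reads along the gene as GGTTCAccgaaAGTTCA and lies from base -53 to base -37 before the start (chr14:16575513-16575529). In Cyp26a1 it reads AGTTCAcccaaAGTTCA on the opposite strand and lies from base -32 to base -16 (chr19:37697776-37697792). Both genes are textbook targets of retinoic acid, and the half-sites of their pairs are among the known variants searched. The 2 members beside 0.115% of all genes are therefore no test of enrichment. A match of letters is a description, not a measured binding site. Their RNA is given below with that of the other members.

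In the comparison of both knockouts with wild type, Rarb was the member that rose past the threshold, by 1.47-fold, and no member fell. Cyp26b1, Aldh1a2 and Crabp1 had estimates of 1.38-, 1.35- and 1.39-fold and did not pass the main test. Rara, Crabp2 and Stra6 had estimates below wild type and did not pass it either. With 1 of 10 members called, the share called over all 14521 genes was 5.11%, with 1.07% higher and 4.04% lower. At an unadjusted p under 0.05 stood 4 members (Rarb, Cyp26b1, Aldh1a2 and Crabp1) beside 26.1% of all genes. DESeq2 called 2 members, Rarb and Cyp26b1, beside 8.31% of genes. The median log2 fold change of the 10 members was 0.35, beside 0.01 over all genes tested.

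**Figure D1:**
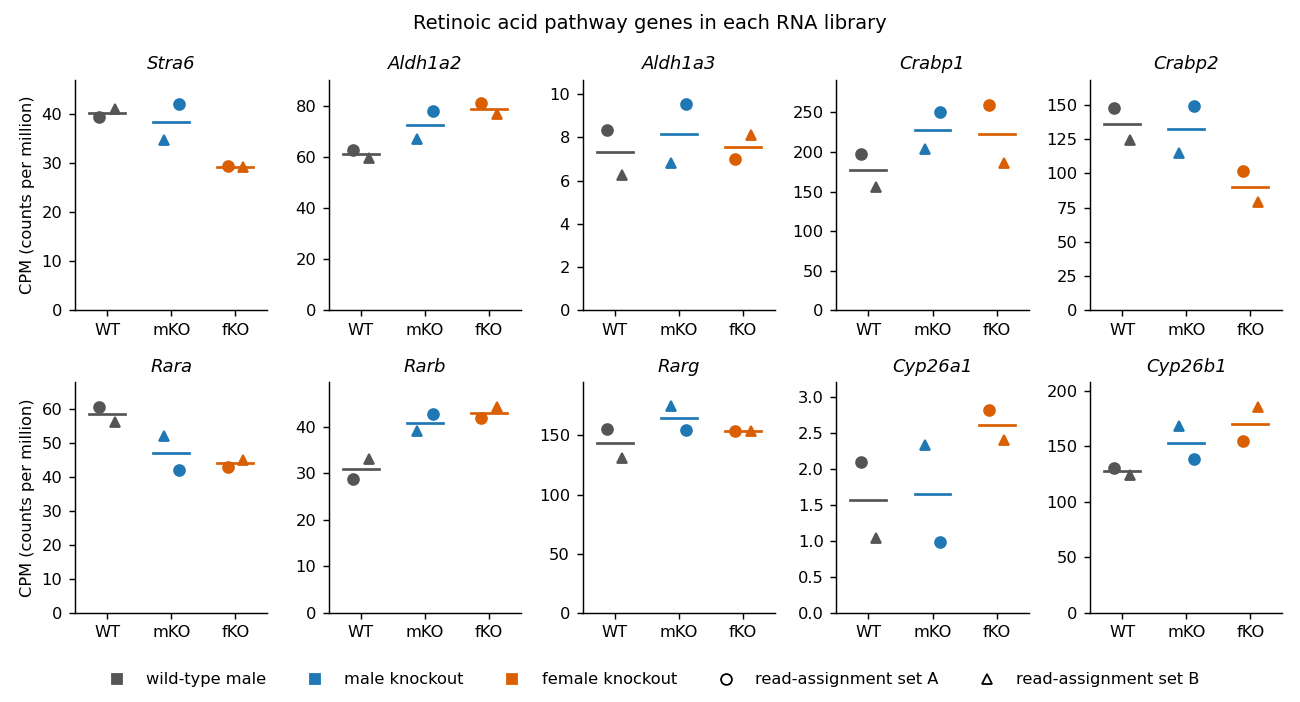
CPM of the 10 members in each RNA library, with the vertical axis from 0, 1 point per library and a bar at the mean of the 2 libraries of wild-type males (WT), male knockouts (mKO) and female knockouts (fKO). Circles are set A and triangles set B. Rarb, Cyp26b1 and Aldh1a2 stand higher in all 4 knockout libraries than in both wild-type libraries, and Stra6 and Crabp2 are lowest in the female knockout.

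Stra6, the cell-surface receptor through which retinol enters the cell, was read at 39.4 and 41.1 CPM in wt1 and wt2, at 34.7 and 42.1 in mko1 and mko2, and at 29.4 and 29.3 in fko1 and fko2. The female knockout libraries were the lowest, nearly equal to each other, and did not overlap with either male group, while the male knockout libraries lay on both sides of wild type. In CPM 36.1% of all genes tested were lower in the female knockout than in wild type without overlap. The share lower than in the male knockout is not given here, and Rarg also lay below the male knockout without overlap. The female difference from wild type was -0.34 on the log2 scale (SE 0.14, edgeR adjusted p = 0.245). The female knockout also stood -0.39 below the male knockout (SE 0.14, unadjusted p = 0.0248, edgeR adjusted p = 1.0), which did not pass the adjustment over all genes. The male knockout differed from wild type by 0.05 (SE 0.14).

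Aldh1a2, the main retinaldehyde dehydrogenase of the early embryo, was read at 62.5 and 59.5 CPM in wt1 and wt2, 67.1 and 77.9 in mko1 and mko2, and 80.9 and 76.8 in fko1 and fko2. All 4 knockout libraries lay above both wild-type libraries, by the least in mko1. Both knockouts differed from wild type by 0.43 on the log2 scale (SE 0.12, edgeR adjusted p = 0.0814), and it was 0.37 in the male and 0.49 in the female comparison.
Aldh1a3, the family member known from the eye, nasal and facial region, was far lower in reads, with 91 to 156 per library. Its level was 8.35 and 6.27 CPM in wt1 and wt2, 6.80 and 9.54 in mko1 and mko2, and 6.99 and 8.11 in fko1 and fko2. The 3 groups overlapped, and both knockouts stood 0.22 from wild type on the log2 scale (SE 0.21).

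Crabp1, a cytoplasmic carrier of retinoic acid and a long-used label of migrating and facial crest, was read at 197 and 156 CPM in wt1 and wt2, 204 and 251 in mko1 and mko2, and 260 and 187 in fko1 and fko2. Both male knockout libraries lay above wild type, while fko2 lay between wt1 and wt2. The log2 fold change in both knockouts was 0.47 with a wide error (SE 0.19, edgeR adjusted p = 0.169).
Crabp2, the carrier known to hand retinoic acid to its nuclear receptors, was read at 148 and 125 CPM in wt1 and wt2, 115 and 150 in mko1 and mko2, and 102 and 79.1 in fko1 and fko2. The male knockout covered the wild-type range on both sides, and the female knockout lay below all 4 male libraries. As for Stra6, 36.1% of all genes tested were lower than wild type without overlap, and the share for the male knockout is not given. The female knockout was -0.46 from wild type (SE 0.20, edgeR adjusted p = 0.246) and -0.54 from the male knockout (SE 0.20, unadjusted p = 0.024, edgeR adjusted p = 1.0). Neither difference passed the adjusted test, and the male knockout stood 0.08 from wild type (SE 0.20).

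Within every library the Crabp pair was read in a ratio that does not depend on the total of the library. Crabp1 made up 57.2% and 55.6% of the reads of the pair in wt1 and wt2, 63.9% and 62.6% in mko1 and mko2, and 71.8% and 70.2% in fko1 and fko2. The means were 56.4% ± 1.1, 63.3% ± 0.94 and 71.0% ± 1.15 (SD, n = 2 each), and the 3 groups did not overlap. Each share rested on 4074 to 6546 reads, with a 95% Wilson interval at most 3.05 points wide that covers counting error only. The knockouts together exceeded wild type by 10.8 points (exact two-sided permutation p = 0.133 over 15 arrangements, adjusted p = 0.267 over 4 shares). This two-sided p is the doubled one-sided p, and 0.133 is the smallest it can take for 4 against 2 libraries. The shares were looked at after the levels were known, so they describe the same reads in another form. Side by side, the log2 differences from wild type were 0.48 for Crabp1 and 0.08 for Crabp2 in the male knockout, and 0.46 and -0.46 in the female knockout.

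Rara, the most widely expressed of the 3 receptors, was read at 60.7 and 56.1 CPM in wt1 and wt2, 52.1 and 42.0 in mko1 and mko2, and 42.9 and 45.0 in fko1 and fko2. All 4 knockout libraries lay below wild type in CPM, where 29.5% of all genes tested did so. After scaling by TMM factors, which discount genes with extreme ratios between libraries, mko1 at 53.2 lay between wt2 at 52.1 and wt1 at 58.4, and the groups overlapped. The log2 difference of both knockouts from wild type was -0.24 (SE 0.12, edgeR adjusted p = 0.239).

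Rarb, the receptor whose own gene is switched on by retinoic acid, was read at 28.7 and 33.1 CPM in wt1 and wt2, 39.0 and 42.7 in mko1 and mko2, and 41.8 and 44.3 in fko1 and fko2. Every knockout library lay above both wild-type libraries, and the knockout range of 39.0 to 44.3 was narrow. These values rested on 437 to 698 reads per library. The log2 difference of both knockouts from wild type was 0.56 (SE 0.12, edgeR adjusted p = 0.031). It was 0.52 in the male comparison (SE 0.13, edgeR adjusted p = 0.0763) and 0.60 in the female one (SE 0.13, edgeR adjusted p = 0.0682), and both share the wild-type libraries. The female and male knockouts differed by 0.07 (SE 0.13). The call in both knockouts was lost without wt1 (0.49, edgeR adjusted p = 0.08), wt2 (0.62, 0.102), mko1 (0.60, 0.0812) or mko2 (0.52, 0.111), and kept without fko1 or fko2. It was also lost when libraries were scaled by their totals alone (0.44, edgeR adjusted p = 0.0641), a scaling that puts the median of all genes at -0.11. Over 12 alternatives the estimate ranged from 0.44 to 0.62 and the adjusted p from 0.00334 to 0.111, with 7 of the 12 past the threshold.

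Rarg, the receptor prominent in cartilage-forming and skin tissue, was read at 156 and 131 CPM in wt1 and wt2, 175 and 155 in mko1 and mko2, and 153 and 154 in fko1 and fko2. In CPM, wt1 lay above 3 of the 4 knockout libraries, and after TMM scaling all 4 knockout libraries lay above wild type. The log2 fold change of Rarg in both knockouts was 0.27 (SE 0.13, edgeR adjusted p = 0.216).
Within the receptor trio, Rara made up 24.8% and 25.5% of the reads in wt1 and wt2, 19.6% and 17.5% in mko1 and mko2, and 18.0% and 18.5% in fko1 and fko2. The difference of the knockouts from wild type was -6.71 points and the shares did not overlap (18.4% ± 0.88, n = 4, against 25.1% ± 0.51, n = 2). The exact two-sided permutation p, again the doubled one-sided p, was 0.133, the smallest it can take (adjusted p = 0.267). Rarb took 11.7% and 15.1% in wild type and 14.7% to 18.2% in the knockouts, and Rarg 63.5% and 59.5% against 63.3% to 65.8%. For Rarb and Rarg the groups overlapped (exact permutation p = 0.267 each). The trio held 3194 to 3992 reads per library.

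**Figure D2:**
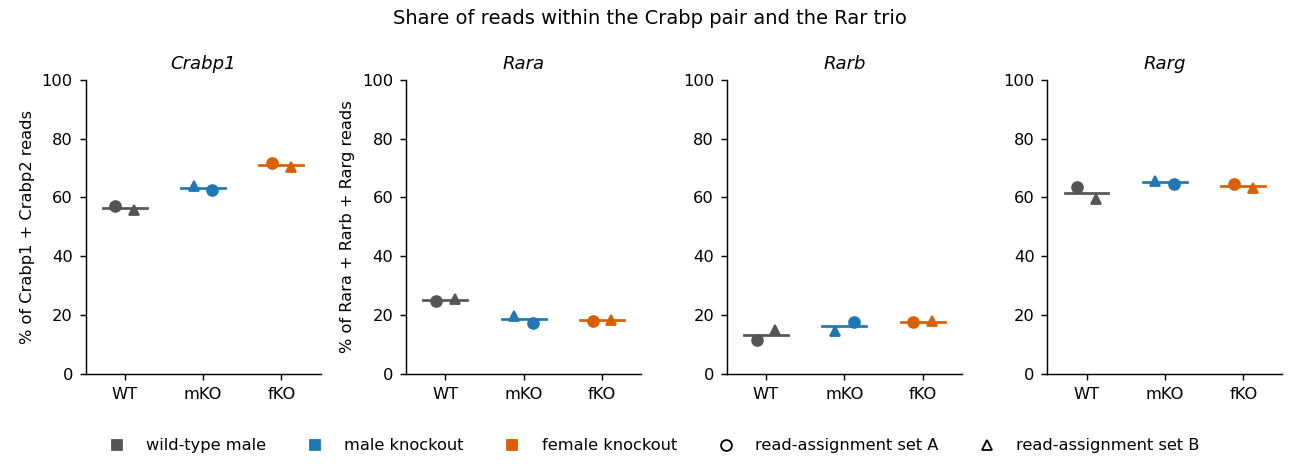
Share in percent of the Crabp1 and Crabp2 reads held by Crabp1, and of the Rara, Rarb and Rarg reads held by each receptor, for each library (points) with a bar at the mean of the 2 libraries of a group. Axes run from 0 to 100%. The Crabp1 share steps from about 56.4% to 63.3% and 71.0%, and the Rara share is lower in all 4 knockout libraries.

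Cyp26a1, the retinoic acid hydroxylase that responds fastest to its substrate, was sparsely read, with 15 to 46 reads per library. Its level was 2.10 and 1.03 CPM in wt1 and wt2, 2.33 and 0.979 in mko1 and mko2, and 2.82 and 2.40 in fko1 and fko2. The female libraries were the highest, and the male knockout spanned the wild-type range and more. The female knockout stood 0.85 from wild type on the log2 scale with a large error (SE 0.46, edgeR adjusted p = 0.323), and that of the male knockout 0.17 (SE 0.49).
Cyp26b1, the degrading enzyme known from limb, skeletal and hindbrain tissue, was read at 131 and 124 CPM in wt1 and wt2, 168 and 138 in mko1 and mko2, and 155 and 186 in fko1 and fko2. All 4 knockout libraries lay above both wild-type libraries, by the least in mko2. The log2 difference of both knockouts was 0.46 (SE 0.13, edgeR adjusted p = 0.0756), and DESeq2 gave 0.46 with an adjusted p of 0.0278. In the female comparison it was 0.54 (SE 0.14, edgeR adjusted p = 0.121; DESeq2 adjusted p = 0.0453) and in the male one 0.38 (SE 0.14, edgeR adjusted p = 0.196). Over 12 alternatives the adjusted p for both knockouts ranged from 0.00601 to 0.489.

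In CPM, Rarb, Cyp26b1 and Aldh1a2 were higher in all 4 knockout libraries than in both wild-type ones, 3 of 10 members beside 9.83% of all genes tested. After TMM scaling Rarg joined them, giving 4 of 10 beside 18.9%, and no member was lower in all 4 beside 20.1%.

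The separate comparisons of the male and the female knockout with wild type called no member. In the male comparison edgeR called 2.34% of all genes, and 3 members (Rarb, Cyp26b1 and Aldh1a2) had an unadjusted p under 0.05, where 20.2% of all genes did. DESeq2 called 0 members there and 5.21% of all genes. In CPM 4 members (Crabp1, Rarb, Cyp26b1 and Aldh1a2) lay above wild type in both male knockout libraries and 1 (Rara) below, beside 17% and 39.4% of all genes. In the female comparison edgeR called 1.12% of all genes, and 5 members had an unadjusted p under 0.05, of which Rarb, Cyp26b1 and Aldh1a2 had positive and Crabp2 and Stra6 negative estimates, beside 19.6% of all genes. DESeq2 called 2 members in the female comparison, Rarb and Cyp26b1, where it called 3.75% of genes. In CPM 4 members (Rarb, Cyp26a1, Cyp26b1 and Aldh1a2) lay above wild type in both female libraries and 3 (Crabp2, Rara and Stra6) below, beside 14.4% and 36.1% of all genes. Between the female and the male knockout edgeR called 0.0344% of genes and no member, with Crabp2 and Stra6 at an unadjusted p under 0.05 (1.72% of all genes) and no member called by DESeq2 (0.0275% of genes). The median log2 fold change of the members was 0.30 in the male and 0.34 in the female comparison.

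**Figure D3:**
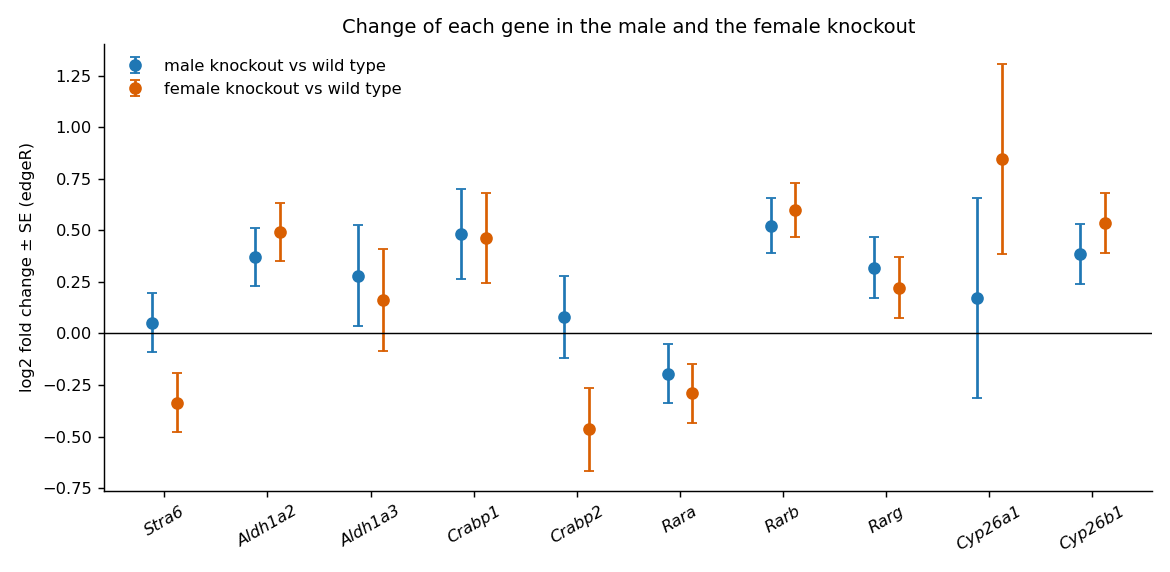
Log2 fold change from the edgeR fit for each member in the male (blue) and the female (orange) knockout against wild type, with bars of 1 standard error and a line at 0. Rarb is at 0.52 and 0.60, and Crabp2 and Stra6 are near 0 in the male and at -0.46 and -0.34 in the female knockout.

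The libraries of a group were also compared between the sets. Set B stood below set A in all 3 genotypes for Crabp1 (log2 ratios -0.39, -0.31 and -0.57 in wild type, male and female knockout), Crabp2 (-0.30, -0.40 and -0.46) and Aldh1a2 (-0.12, -0.23 and -0.17). For every other member the sign differed between genotypes, as for Rarb (0.15, -0.15 and -0.01). The share of all genes with the same sign in the 3 genotypes was not counted, so these members are not shown to follow the sets. Compared within a set, with TMM scaling, Rarb exceeded its wild-type library by 0.67 and 0.37 in the male and by 0.68 and 0.52 in the female knockout (sets A and B). Crabp1 did so by 0.45 and 0.53 in the male and 0.54 and 0.36 in the female knockout. Its direction was thus the same in every pair within a set, while across the sets fko2 lay below wt1 (186 against 190 CPM after TMM scaling). For Rara the male pair of set A gave -0.43 and that of set B 0.03, and for Cyp26a1 the sign differed between the sets, with 1.31 in set B.

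**Figure D4:**
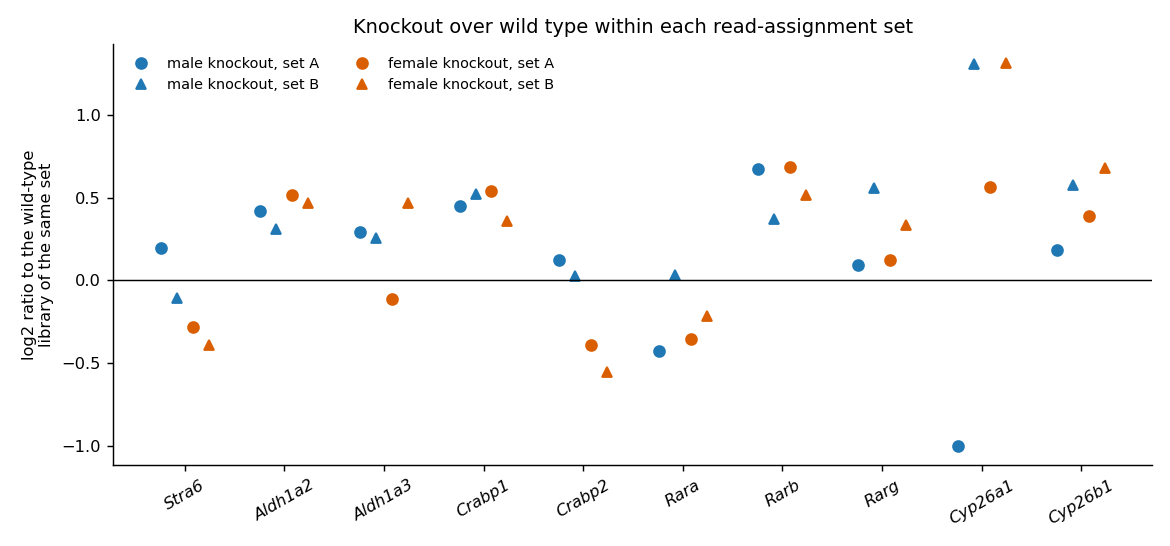
Log2 ratio of each knockout library to the wild-type library of its own set, per member, with circles for set A and triangles for set B and a line at 0. The 4 points of Rarb, Rarg, Cyp26b1, Aldh1a2 and Crabp1 all lie above 0, and those of Cyp26a1 lie on both sides of it, up to 1.32. The share of all genes with 4 points above 0 was not counted.

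With the set as a term in the model, edgeR called 5 members higher and none lower in both knockouts, where 32.6% of all genes were called and 16.3% called higher. Under this model Rarb (0.56, adjusted p = 0.00334), Crabp1 (0.47, 0.00306), Aldh1a2 (0.43, 0.00356) and Cyp26b1 (0.45, 0.00601) rose, and Rarg (0.27, 0.0498) lay at the threshold. Against these values, the range over all 12 alternatives reached an adjusted p of 0.781 for Crabp1, 0.497 for Aldh1a2 and 0.896 for Rarg. In the male comparison 4 members were called higher with the set term (12% of all genes higher), and in the female one 4 higher (12.2%) with Crabp2 lower (11.1%). Crabp2 was then at -0.47 in the female knockout (edgeR adjusted p = 0.00681), and at -0.55 against the male knockout (adjusted p = 0.0879). When 1 library was also left out in turn, the set-term model called 3 to 7 members in both knockouts, 2 to 5 in the male and 0 to 9 in the female comparison. The female count of 0 came without fko1, and the counts of 9 without mko1 or mko2.

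Across the 6 libraries the levels of some members ran together, given here as descriptions, since the libraries share genotypes and sets. On log2 CPM scaled by TMM factors, Pearson's r was 0.91 between Aldh1a2 and Rarb, 0.91 between Stra6 and Crabp2, 0.87 between Aldh1a2 and Crabp1 and -0.88 between Rarb and Rara. The genes outside the members most like Rarb, among 11486 with a mean of at least 5 CPM, were Msn, Sox10 and Snx7 (r = 0.998, 0.998 and 0.992), with 214 genes above 0.9. Sox10, a transcription factor of crest-derived glia, was read at 62.6 and 69.6 CPM in wild type and 71.1 to 76.5 in the knockouts. Those most like Cyp26b1 were Arsb, Ptchd1 and Chsy3 (r = 0.999, 0.992 and 0.985), with 110 genes above 0.9.

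The wider pathway was read from 3 further lists. Of 18 genes of retinol supply and retinoic acid metabolism, 12 were tested, 2 rose in both knockouts and none fell, beside 1.07% of all genes called higher and 4.04% lower. With the set as a term 7 of the 12 were called higher and none lower, beside 16.3% of all genes called higher and 16.3% lower. Dhrs3 reduces retinaldehyde back to retinol. It was read at 9.27 and 10.1 CPM in wt1 and wt2, 15.2 and 15.5 in mko1 and mko2, and 19.1 and 17.9 in fko1 and fko2. Every knockout library lay above wild type in CPM, where 9.83% of all genes tested did so. Dhrs3 rose by 0.92 on the log2 scale in both knockouts (SE 0.15, edgeR adjusted p = 0.0131), by 0.78 in the male (adjusted p = 0.0489) and by 1.06 in the female comparison (adjusted p = 0.0296). The call in both knockouts was lost without wt2 (edgeR adjusted p = 0.0558). The male call was lost without wt1, wt2, mko1 or mko2 (edgeR adjusted p = 0.081 to 0.233), with library totals alone (0.0687), without the low-count filter (0.0572) and with the replicate number as a block (0.0558). The female call was lost without wt2, mko1, mko2 or fko1 (edgeR adjusted p = 0.0582 to 0.0729) and with only the groups compared in the fit (0.0808).
Ttr, which encodes the plasma carrier transthyretin, was read at 35.4 and 50.2 CPM in wt1 and wt2, 48.7 and 51.7 in mko1 and mko2, and 97.9 and 123 in fko1 and fko2. The female libraries stood apart, and the male ones lay within or just above the wild-type range. The log2 difference was 0.92 in both knockouts (SE 0.15, edgeR adjusted p = 0.0152), 1.49 in the female (adjusted p = 0.00772) and 0.36 in the male comparison (adjusted p = 0.278). Between the knockouts it was 1.13 higher in the female (SE 0.17, edgeR adjusted p = 0.247, DESeq2 adjusted p = 3.89e-05). Without mko1 or mko2 the call in both knockouts was lost (edgeR adjusted p = 0.0522 and 0.0515).

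Of 16 receptor partners and cofactors, all 16 were tested and none was called in both knockouts by edgeR, with 5 at an unadjusted p under 0.05 (26.1% of all genes) and 1 (Rere) called by DESeq2 (8.31% of genes). Rere, a coregulator that acts with retinoic acid receptors, was read at 202 and 264 CPM in wild type and 128 to 177 in the knockouts. The groups did not overlap in CPM, where 29.5% of all genes tested were lower without overlap. The log2 difference of Rere was -0.56 (SE 0.15, edgeR adjusted p = 0.0668, DESeq2 adjusted p = 0.0129). Nr2f1, an orphan nuclear receptor of crest and brain, was at 148 and 187 CPM in wild type and 107 to 127 in the knockouts (-0.38, SE 0.12, edgeR adjusted p = 0.111). With the set as a term 8 of the 16 were called lower and none higher, beside 16.3% of all genes lower, and the median log2 fold change of the list in the main fit was -0.22.

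Of 22 genes known to respond to retinoic acid, 16 were tested, and in both knockouts 1 rose (Dhrs3, which is also in the supply list) and 2 fell, among them Gbx2, beside 1.07% of all genes called higher and 4.04% lower. Gbx2, a homeobox gene of the hindbrain border, was read at 18.5 and 18.1 CPM in wild type against 5.67 and 10.8 in the male and 6.75 and 8.83 in the female knockout. All 4 knockout libraries lay below both wild-type libraries in CPM, where 29.5% of all genes tested did so. Gbx2 fell by 1.07 (SE 0.23, edgeR adjusted p = 0.0365), beside the fall of neural tube markers given above. Gbx2 was not called without wt2 or mko1 (edgeR adjusted p = 0.0661 and 0.0572). The median of the list was 0.12, and 10 of its 16 tested genes had positive estimates, beside 51.1% of all genes. With the set as a term 4 of the 16 were called higher and 2 lower, beside 16.3% of all genes called higher and 16.3% lower.

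**Figure D5:**
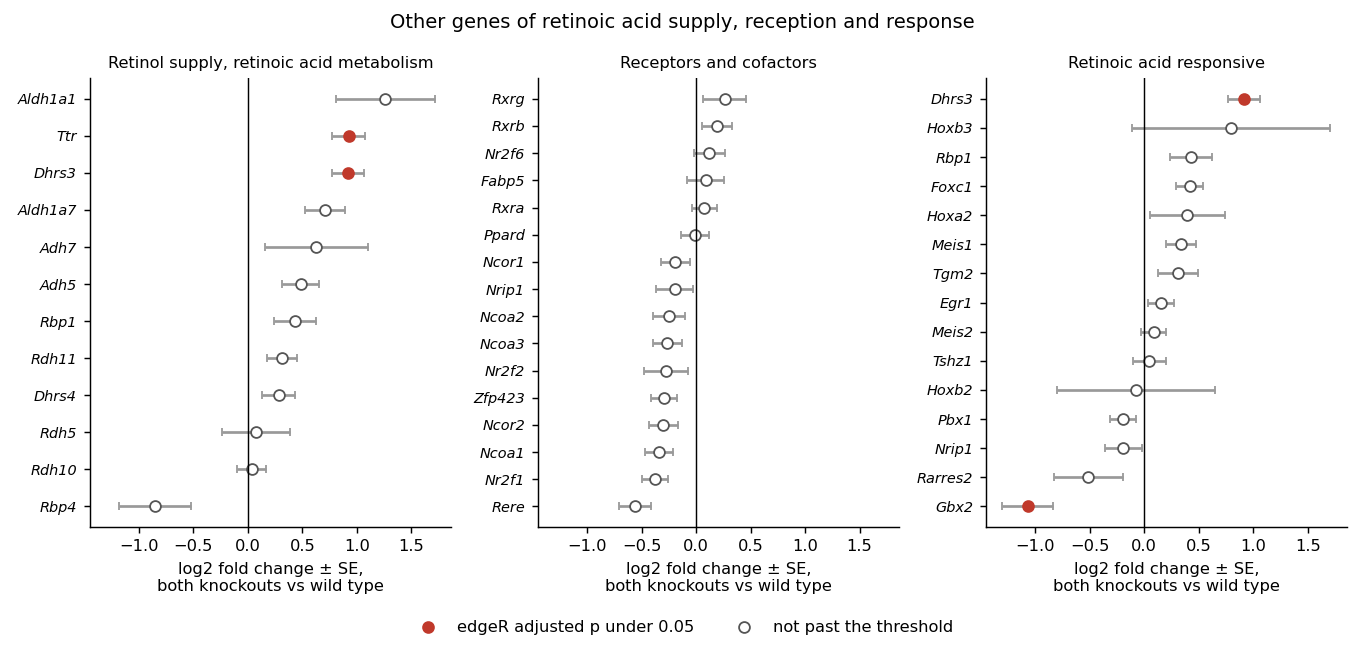
Log2 fold change of both knockouts against wild type (edgeR, bars of 1 standard error) for tested genes of 3 lists, with filled points for genes past an adjusted p of 0.05 and a line at 0. Dhrs3 and Ttr are filled above 0, and Gbx2 below 0.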

How the data were processed

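The deposited RNA table holds raw read counts per gene, made by the authors with Trimmomatic, TopHat2, SAMtools and HTSeq on mm9, per the submitters' processing notes; versions, annotation and the strand setting are not given in the sources used here. The library kit keeps strand, per the labels' protocols. Reads of overlapping or antisense genes are therefore uncertain. The table's 5 summary lines were left out of library sizes; reads on no gene were 16.6% to 21.5% of all listed reads. Counts were tested with edgeR 4.0.16 in R 4.3.3 (quasi-likelihood, TMM, filterByExpr), with 6 libraries and 3 group means in one fit, and Benjamini-Hochberg adjusted p under 0.05 over 14521 genes. DESeq2 1.42.0 was an alternative. CPM used reads on genes. SDs are between libraries. Fits without 1 library assume that the lone library varies like the other groups. The code was tested on simulated data. Family shares used Python 3.11.15 (numpy 2.4.6, pandas 2.3.3), and plots matplotlib 3.10.9. The members, the lists and the rule for named genes were chosen with earlier results of these data known. The rule names all 10 members, list genes past the threshold (or the 2 with the smallest p), and the 3 genes most like each of the 2 members with the smallest p. Bco1 was read as Bcmo1. Peaks on mm9 carry no gene names and were not used here. Promoter sequences are from RefSeq on GRCm38.p6. Some genes of the lists are not reported here.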

Additional observations from a re-analysis of the deposited data

How the results depend on the processing

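For the members, DESeq2 called 2 in both knockouts and 2 in the female comparison, library totals alone 0 in both, and the set term 5, 4 and 5 in both, male and female. Leaving out 1 library gave 0 to 3 members in both knockouts, 0 to 1 in the male comparison and 0 in the others. With the set term and 1 library left out (chosen after seeing the data), it gave 3 to 7, 2 to 5 and 0 to 9. Over all genes, 742 were called in both knockouts, 340 in the male, 163 in the female and 5 in the female against male comparison. DESeq2 called 1137, 757 and 523 in the first 3, and the set term 4735, 3589 and 3384. With only the groups compared, the male count was 938 and the female 33. Without 1 library the counts ran from 215 to 2212, 2 to 990, 60 to 1048 and 5 to 9. Library totals alone gave 106 genes higher and 859 lower in both knockouts, against 156 and 586.

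Replicate numbers did not pair the libraries: same-numbered deviations correlated at -0.24 (wild type and male knockout), 0.43 (wild type and female knockout) and -0.23 (the knockouts). A replicate block gave 818, 481, 329 and 5 genes and the same members as without it, and ended the call of Dhrs3 in the male comparison (edgeR adjusted p = 0.0558).

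Of 776 recalculated estimates of single genes, 13 changed sign, and none of those was called in the main fit. In both knockouts this was Aldh1a3 without wt2 (-0.012 to 0.47). In the male comparison these were Crabp2 with library totals alone (-0.040) and without wt2 (-0.078) or mko2 (-0.13 to 0.27), Cyp26a1 without wt2 (-0.28) or mko1 (-0.56 to 0.81), and Stra6 with library totals alone (-0.069) and without mko2 (-0.10 to 0.20). In the female comparison this was Aldh1a3 without wt2 (-0.073 to 0.41). Between the knockouts these were Crabp1 without mko2 (0.15) or fko2 (-0.33 to 0.23), Rara without mko1 (-0.24 to 0.059) and Aldh1a3 without mko2 (-0.35 to 0.16). Ranges are over the libraries left out in turn. The cause was not tested. The fewest reads of any member were those of Cyp26a1, with 15 to 46 per library.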

Other observations

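Among the further genes of the pathway, 6 of the 18 supply and metabolism genes and 6 of the 22 responsive genes were too low to test. Cyp26c1, the third retinoic acid hydroxylase, had 1 and 3 reads in wild type and 5 or 6 in each knockout library, too few for a fold. Lrat, which stores retinol as esters, had 0 to 3 reads per library. Hoxb1, an early hindbrain target of retinoic acid, had 0 to 3 reads per library. Stra8, known from germ cells, had 0 reads in all 6 libraries.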
